A study of Mus musculus with 1920 samples.

Results

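DNA replication and S-phase genes were followed through single intestinal stem cells (ISCs) of young and aged mice. The set holds 36 genes, taken from a fixed list of names, out of 55471 gene identifiers in the table, and each of the 36 was found there. The list was chosen with earlier results of these data known. Cells with at least 1000 detected genes were used, which kept 1836 of 1920 cells. These were 906 cells of 3 young mice and 930 cells of 4 aged mice. All mice carried the B6.129P2-Lgr5tm1(cre/ERT2)Cle/J allele, a knock-in that places eGFP and a tamoxifen-dependent Cre in the Lgr5 locus, so that GFP marks the cells in which that locus is active. Cells with high GFP (Lgr5high) were taken singly and read by Smart-seq2, which covers whole transcripts. The labels call the mice young or old and do not give their ages in weeks, and no treatment separates the groups. GFP brightness set the sort, so the cells stand for the Lgr5high gate and not for the whole crypt.

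DNA replication starts with licensing. Cdc6 and Cdt1 load the ring-shaped MCM helicase, made of Mcm2 to Mcm7, onto origins during G1. At the start of S phase Cdc45 and the GINS complex join the ring, with Mcm10, and turn it into an active helicase. Polymerases then copy the strands behind it while Pcna, the sliding clamp, holds them on DNA. E2F factors and cyclin E drive the transcription of many of these genes at the G1/S border, and ISCs at the base of the crypt are known to cycle through life.

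A mouse gave 160 to 376 kept cells and 49447464 to 134408884 counted reads. The median cell had 305492 reads and 9398.5 detected genes, and no barcode or count column was shared between mice. Every one of 20 ISC marker genes had reads in every mouse. So did all 9 Paneth cell, 12 enterocyte and 7 goblet cell markers, so this does not set ISCs apart. Summed over the list, ISC markers had 19614 to 23965 CPM (counts scaled to a common read total) in young mice. In aged mice they had 15505 to 25321 CPM. Paneth cell markers had 8327 to 27961 CPM in young and 13926 to 30772.5 CPM in aged mice. The ranges of these lists overlapped in each age group. By the list of marker genes with the highest mean level, 1511 of 1836 cells were led by ISC markers, 156 by Paneth cell markers, 80 by enterocyte markers and 60 by goblet cell markers, and 29 by the other lists. ISC-led cells were 70.2% to 73% of the kept cells in aged mice 2, 3 and 4 and 85.6% to 92.2% in aged mouse 1 and the young mice.

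Most of these genes were on in most cells. The median member had at least 1 read in 81.3% of cells, 23 of 36 members were on in at least 75% of cells and 8 in fewer than 50%. The share ran from 22.3% of cells for E2f1, a transcription factor of the G1/S border, to 95.2% for Mcm7, a subunit of the helicase ring. E2f1 was on in 22.5%, 21.1% and 18.9% of cells of young mice 1 to 3 and in 16.4%, 28.5%, 27.0% and 24.3% of cells of aged mice 1 to 4. Mcm7 was on in 97.5%, 96.8% and 95.7% of cells in the young mice and in 93.1%, 91.9%, 94.2% and 95.1% in the aged mice. The E2f1 shares of the age groups overlapped. For Mcm7 all 4 aged mice lay below the young mice. After every cell was thinned to 100000 reads, which left out 36 young and 68 aged cells, the Mcm7 shares overlapped (93.2% to 95.2% in young and 88.3% to 94.3% in aged mice) and the median share over members was 76.3%. A share of cells with a read counts detection and not only expression, since a low transcript can be missed in a cell that holds it.

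A median cell had 28 of the 36 members on, and the quartiles over cells were 21 and 32. All 36 were on in 76 cells, and at most 9 in 65 cells. At least 27 members were on in 58.4% of cells. The median cell had 29, 29 and 25 members on in the young mice and 24, 29, 30 and 30 in the aged mice, so young mouse 3 and aged mouse 1 stood lowest and the age groups overlapped.

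**Figure D1:**
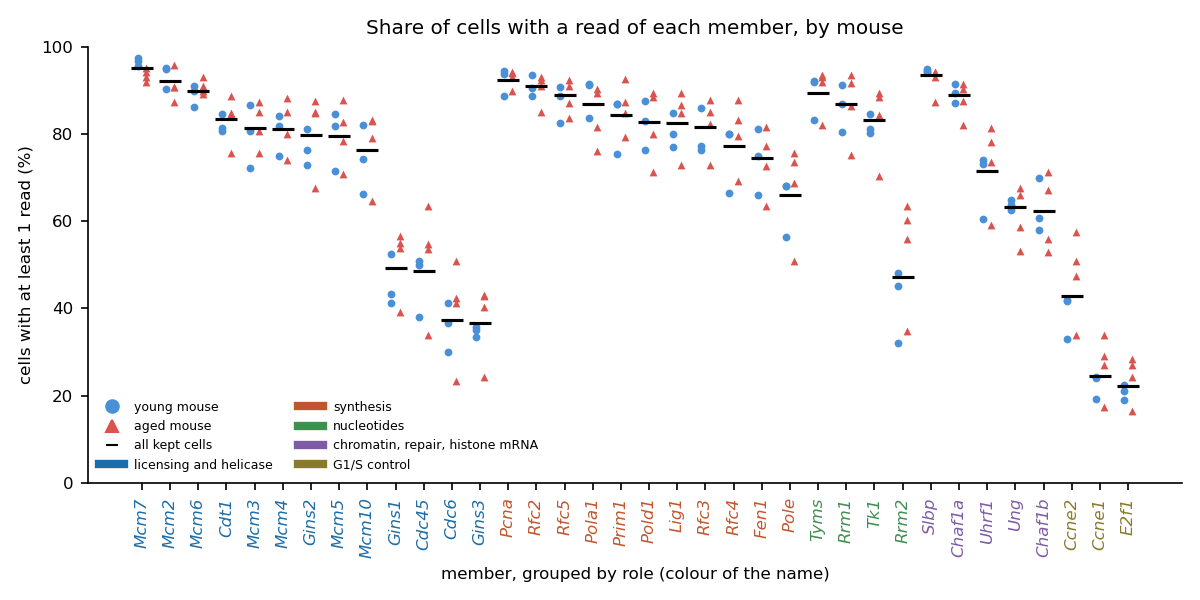
Share of cells (%, vertical axis) with at least 1 read of each of the 36 members (horizontal axis, grouped by role). Circles are the 3 young mice, triangles the 4 aged mice and black lines all 1836 kept cells. The core helicase, synthesis and nucleotide genes sat mostly above 75%, whereas Gins1, Cdc45, Cdc6, Gins3, Rrm2, Ccne2, Ccne1 and E2f1 sat below 50%.

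Levels differed far more between members than between mice. Levels between genes were compared as CPM, counts scaled to a common read total, of the summed cells of a mouse, divided by the length in kilobases of the principal transcript. On this scale the highest member stood 47.6-fold above the lowest. Pcna led with 97.9 ± 18.8 CPM per kb (SD, n = 7 mice). Slbp, which binds the stem-loop of histone mRNAs, followed with 71.2 ± 21.2 CPM per kb, and Mcm6 with 69.8 ± 11.1 CPM per kb. The mean ± SD ranges of these 3 overlapped. Tk1 had the highest level per length of the 4 nucleotide genes, with 63.0 ± 22.6 CPM per kb, and Ccne2 of the 3 G1/S control genes, with 5.98 ± 2.79 CPM per kb. Ccne1 and E2f1 were lower still, with 4.81 ± 1.92 and 2.06 ± 0.928 CPM per kb.

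The ring subunits did not sit at 1 common level. Mcm6 and Mcm7, the highest of the ring, had 69.8 ± 11.1 and 62.9 ± 6.1 CPM per kb, whereas Mcm4 had 26.7 ± 5.23 CPM per kb. The GINS subunits, which form a complex together with Gins4, which is outside the list, were lower than the ring, at 18.6 ± 8.91 CPM per kb for Gins1, 11.0 ± 1.84 for Gins2 and 6.5 ± 2.97 for Gins3. The clamp loader subunits ran from 23.4 ± 4.08 CPM per kb for Rfc2 to 61.9 ± 18.0 for Rfc4. The sources used here do not say whether reads were counted by strand, and 13 members have an exon that overlaps a gene on the opposite strand, among them Mcm7, Cdc45, Rfc2, Rfc4, Fen1, Tk1 and Slbp. Pcna and Tyms have named pseudogenes. Reads of these genes could be split or shared.

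Letters that E2F factors are known to recognise were searched for in the start regions of the members, and a few stretches are shown. Any link between these letters and the correlations below was not tested. The RefSeq promoter table gives 250 bases before to 50 bases after a start and held 30 of the 36 members. Any of the 8-letter forms TTTCCCGC, TTTGGCGC, TTTGCCGC and TTTCGCGC, on either strand, was in 12 of the 30, or 40%, against 2.61% of the 27025 genes in the table. It was in 7 of 10 licensing and helicase genes (Cdc6, Cdt1, Mcm3, Mcm5, Mcm6, Mcm7, Gins3), in 4 of 9 synthesis genes (Pola1, Pold1, Rfc3, Lig1), in Uhrf1 and in 0 of 4 nucleotide genes. CCAAT, the box bound by NF-Y, was in 17 of the 30 members and in 41.1% of all genes. The letters TTTGAA or TTCGAA, known from the promoters of mitotic genes, were in 6 of the 30 members, in 15 of 19 G2 and mitosis genes and in 21.7% of all genes. Capitals mark the E2F letters in Mcm5, Mcm6 and Uhrf1 and the CCAAT box in Rrm2, a nucleotide gene with no E2F letters in this window. The stretches, read 5′ to 3′ on the strand of the gene and ending before a RefSeq start, are from GRCm38.p6 at chr8:75109326-75109397 (plus strand), chr1:128359715-128359845 (minus strand), chr17:56304098-56304165 (plus strand) and chr12:24708174-24708238 (plus strand).
Mcm5: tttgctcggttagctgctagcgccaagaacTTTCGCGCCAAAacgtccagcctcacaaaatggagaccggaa
Mcm6: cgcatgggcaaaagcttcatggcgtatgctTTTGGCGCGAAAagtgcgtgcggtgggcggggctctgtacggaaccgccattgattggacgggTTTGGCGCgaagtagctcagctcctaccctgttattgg
Uhrf1: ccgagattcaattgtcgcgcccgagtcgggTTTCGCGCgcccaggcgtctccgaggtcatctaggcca
Rrm2: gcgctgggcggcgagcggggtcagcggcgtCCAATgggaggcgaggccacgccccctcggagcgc
The Uhrf1 stretch lies before the second of its RefSeq starts in the table, inside an intron of the longest annotated transcript, which begins at 56303321. A gene with several starts was counted as holding a motif if any of its windows did. In Mcm5 and in the first run of Mcm6 matches on both strands overlap and read as 1 run of capitals. A match describes letters and does not show that a factor binds there, and a window without a match says nothing of the factor.

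The members varied together from cell to cell. Correlations were taken over the log2(CPM + 1) values of the cells of a mouse and then averaged over the 7 mice. They are descriptions, because the cells of a mouse share their library and each cell's depth enters both genes. The median Pearson r over the 630 pairs was 0.428 ± 0.0548 (SD, n = 7 mice), with the lowest mouse at 0.374 and the highest at 0.529. All 630 pairs had a mean r above 0, and 626 were above 0 in all 7 mice. The members' median r with the 14729 other genes detected in at least 10% of cells was 0.104 ± 0.0248. The 23 G2 and mitosis genes were tied more tightly among themselves, with a median r of 0.757 ± 0.0265.

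Uhrf1, which binds hemimethylated DNA behind the fork and brings Dnmt1 there, was the member most like the rest. Its r with the mean of the other 35 members was 0.811 ± 0.035 (SD, n = 7 mice). The strongest pair was Rrm1, the large subunit of ribonucleotide reductase, with Uhrf1, at a mean r of 0.692 ± 0.0521. It was followed by Pole, the catalytic subunit of polymerase epsilon, with Uhrf1 at 0.677 ± 0.0572. The ring subunits came next, with r of 0.646 ± 0.0729 for Mcm3 with Mcm5. By role, the nucleotide genes were closest to each other, with a median r of 0.55 ± 0.0457 over 6 pairs, and the G1/S control genes were farthest apart, with 0.255 ± 0.0546 over 3 pairs. E2f1 and Ccne1 were on in the fewest cells, and the part of low counts in these values was not tested.

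Ung, the glycosylase that removes uracil from DNA, was in the weakest pair of all, Rrm2 with Ung, at r of 0.04 ± 0.0493. Ung with Tk1 had 0.0942 ± 0.0849 and Ung with Gins3 0.12 ± 0.0903. The r of Ung with the mean of the other members was 0.397 ± 0.0424, and E2f1 was lower, with 0.318 ± 0.0504.

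**Figure D2:**
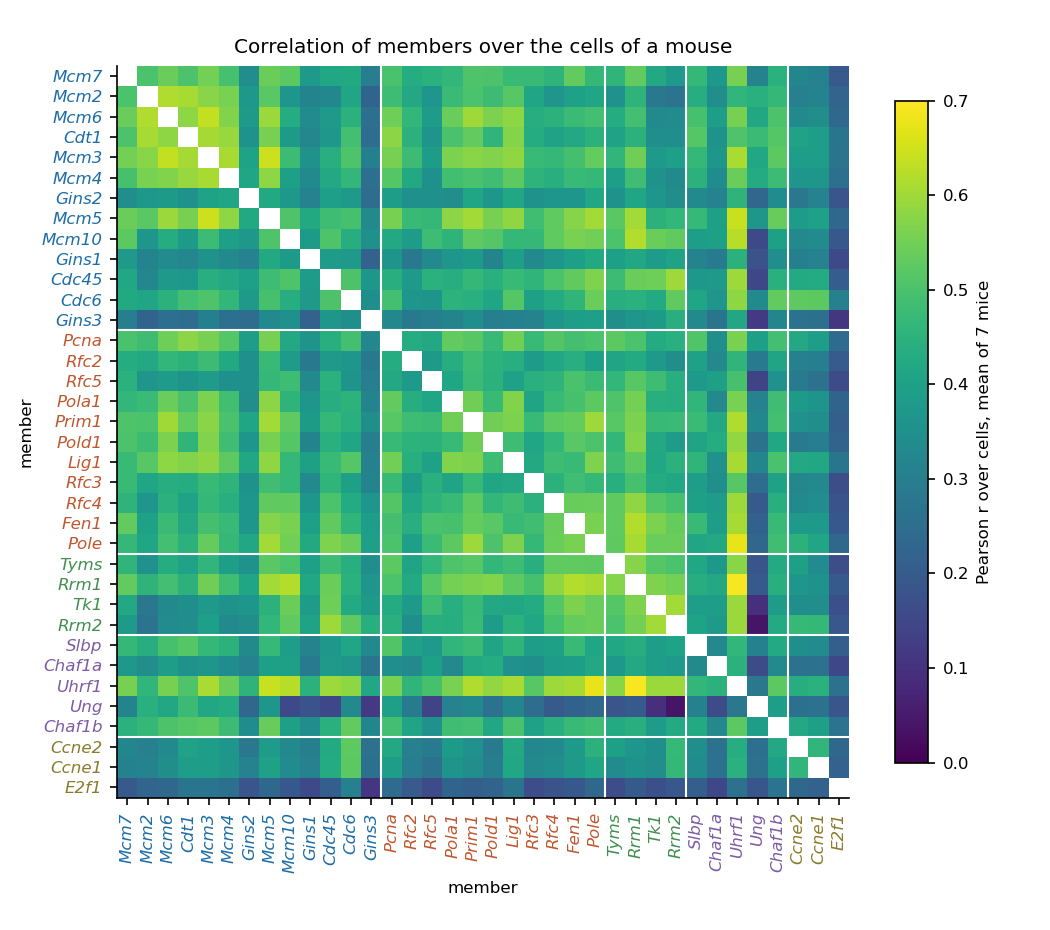
Pearson r between members over the cells of a mouse, averaged over 7 mice (colour, 0 to 0.7), with members in the same order on both axes, grouped by role with white lines between roles. The Uhrf1 row is bright throughout, up to 0.692 with Rrm1, and the rows of Ung and E2f1 are dark, down to 0.04 for Ung with Rrm2.

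The member score, the mean log2(CPM + 1) of the 36 genes in a cell, was used to look for genes outside the list with the same pattern. Over the 14729 detected genes, the 10 with the highest mean Spearman correlation over 7 mice were Slfn9 (0.826 ± 0.0274), Atad2 (0.789 ± 0.0426), Dtl (0.76 ± 0.0491), Dnmt1, Hells, Tcf19, Gm10143, Dnajc9, Ncapg2 and Clspn (0.708 ± 0.0241). Dnmt1 copies DNA methylation, Clspn carries the checkpoint signal at forks and Dtl directs the destruction of Cdt1. Gm10143 overlaps an exon of Fen1 on the opposite strand, and without strand its reads cannot be told apart from those of Fen1. The median over all 14729 genes was 0.13. None of the 23 G2 and mitosis genes was among the top 30, and 11 of the 30 were in a list of 56 other replication genes.

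A cell's member score followed its G2 and mitosis score in every mouse, whereas its r with the ISC score was near 0 in some young mice. With the G2 and mitosis score the r was 0.347, 0.4 and 0.504 in young mice 1 to 3 and 0.464, 0.558, 0.341 and 0.394 in aged mice 1 to 4. The age groups overlapped. With the mean of 20 ISC markers the r was 0.0709, 0.19 and 0.0263 in the young mice and 0.244, 0.393, 0.431 and 0.571 in the aged mice. All 4 aged mice lay above the young mice. Thinned to equal reads, the r with the ISC score was 0.0173, 0.111 and -0.00159 in the young and 0.104, 0.383, 0.303 and 0.464 in the aged mice, which overlapped between young mouse 2 and aged mouse 1. Among ISC-led cells alone it was between -0.0136 and -0.000123 in the young and between 0.105 and 0.301 in the aged mice. The r of the score with the log10 reads of a cell was also higher in aged mice (-0.0186 to 0.176 in young, 0.179 to 0.334 in aged mice), and the share of ISC-led cells was lower in aged mice 2, 3 and 4. Their part in this was not tested.

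Single members differed in what they followed. Rrm2, a small subunit of ribonucleotide reductase, had r of 0.597 ± 0.0439 with the G2 and mitosis score and -0.00312 ± 0.146 with the ISC score. Of the 36 members 34 had a mean r above 0 with the G2 and mitosis score. The others were Ung, with -0.233 ± 0.0917, and E2f1, with -0.00354 ± 0.0697. Mcm2 had 0.00308 ± 0.112 with the G2 and mitosis score and the highest r with the ISC score, 0.369 ± 0.138. The other 35 members had between -0.00312 and 0.367 with the ISC score.

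To order the genes along the cycle without using them, ISC-led cells of each mouse were ranked by the mean of 23 G2 and mitosis genes, none of them a member, and cut into tertiles of 44 to 115 cells. The lowest tertile (501 cells) had a median G2 and mitosis score of 0.886 ± 0.346 (SD, n = 7 mice), the middle tertile (509 cells) 3.45 ± 1.84 and the highest (501 cells) 7.91 ± 0.42. The middle tertile was not the same stretch in every mouse. Its median score was 1.18 in young mouse 3 and 1.24 in aged mouse 1 and 2.99 to 5.79 in the other 5 mice. The number of members on in the median cell rose from 21.1 ± 4.56 in the lowest to 30.5 ± 3.88 in the middle and stayed at 30.7 ± 1.11 in the highest tertile. Counts were summed per mouse and tertile and tested by edgeR's quasi-likelihood test with the mouse as a block. Median reads per cell were 300246 ± 76818 in the lowest and 302887 ± 73787 in the highest tertile. The median number of detected genes was lower in the lowest than in the middle tertile in all 7 mice, for example 7354 against 8835 in young mouse 1 and 8699 against 10333 in aged mouse 2, and its part in the number of members on was not tested.

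From the lowest to the middle tertile most of the set rose. All 36 members had a positive log2 fold change, with a median of 1.11 against 0.01 over the 16191 genes tested, and 27 of 36 were called higher at an adjusted p under 0.05 (edgeR), where 2.03% of all genes were. The called members were 11 of 11 synthesis genes, 4 of 4 nucleotide genes, 3 of 3 G1/S control genes, 7 of 13 licensing and helicase genes, and Uhrf1 and Chaf1a. Summed counts cannot tell more cells with a transcript from more transcript per cell. This contrast was added after the profile over tertiles had been seen, and the number called rests on the mice used. It was 9 without aged mouse 2, 10 without young mouse 2, 14 without aged mouse 4, 15 without young mouse 1 and 6 when the mouse was not a block. For these and the other alternative fits between tertiles and classes, the share of all genes called is not given here. Those counts therefore do not tell a change in the members from a change over all genes.

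Rrm2 had the largest change. Its CPM over the 7 mice ran from 0.236 to 19.2 with a median of 1.85 in the lowest tertile and from 4.23 to 119 with a median of 73.5 in the middle tertile. It was higher in the middle tertile in all 7 mice, while the ranges over mice overlapped. The log2 fold change was 4.39 ± 0.49 (SE, edgeR adjusted p = 0.00208). Ccne1, a cyclin that activates Cdk2 at the G1/S border, went from a median of 1.96 CPM (0 to 7.63) to 16 CPM (4.07 to 35), a log2 fold change of 2.85 ± 0.49 (edgeR adjusted p = 0.014). Cdc45 went from a median of 6.61 CPM (1.7 to 10.3) to 54.8 CPM (8.88 to 78.6), a log2 fold change of 2.76 ± 0.21 (edgeR adjusted p = 0.000578). Both rose in all 7 mice.

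Mcm7, the member on in the most cells, changed less than the median member. It had a median of 139 CPM (104 to 211) in the lowest and 256 CPM (169 to 277) in the middle tertile, a log2 fold change of 0.64 ± 0.12 (edgeR adjusted p = 0.0223). Pcna went from a median of 91.6 CPM (59.2 to 175) to 247 CPM (92.9 to 291), a log2 fold change of 1.14 ± 0.22 (edgeR adjusted p = 0.0235). Among the 9 members not called were Mcm2 (log2 fold change 0.47 ± 0.16, edgeR adjusted p = 0.165), Ung (0.42 ± 0.23, edgeR adjusted p = 0.423) and Cdc6 (2.26 ± 0.53, edgeR adjusted p = 0.0504).

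From the middle to the highest tertile the members divided. Of 36 members 25 had a negative and 11 a positive log2 fold change, with a median of -0.28 against -0.02 over the 16084 genes tested. Ung, Mcm2 and Mcm6 were called lower by edgeR, 3 of 36 where 0.715% of all genes were, and 0 members were called higher. In either direction 10 of the 36 had an unadjusted p under 0.05, as did 2654 of the 16084 genes tested. Ung fell from a median of 60.9 CPM (41.7 to 122) to 15.6 CPM (6.42 to 32.3), and the mice of the tertiles did not overlap, with a log2 fold change of -2.06 ± 0.28 (edgeR adjusted p = 0.0053). Mcm2 went from 230 CPM (170 to 323) to 118 CPM (117 to 211) in the median and was lower in 7 of 7 mice, a log2 fold change of -0.81 ± 0.16 (edgeR adjusted p = 0.0271). Mcm6 went from 308 CPM (230 to 396) to 171 CPM (130 to 270), lower in 6 of 7 mice, with -0.77 ± 0.18 (edgeR adjusted p = 0.0463).

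At the other end all 4 nucleotide genes had positive values. Tk1, the thymidine kinase of the salvage route, had a median of 102 CPM (27.7 to 250) in the middle and 153 CPM (118 to 202) in the highest tertile, and its log2 fold change of 0.72 ± 0.30 did not pass the test (edgeR adjusted p = 0.266). Mcm10 had 0.61 ± 0.25 (edgeR adjusted p = 0.252) and Rrm1 0.52 ± 0.20 (edgeR adjusted p = 0.227), each higher in 6 of 7 mice. The count was 1 in place of 3 without aged mouse 2, aged mouse 4, young mouse 1 or young mouse 2, each left out in turn, and 5 members were called without aged mouse 1. DESeq2 called 7 members lower.

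**Figure D3:**
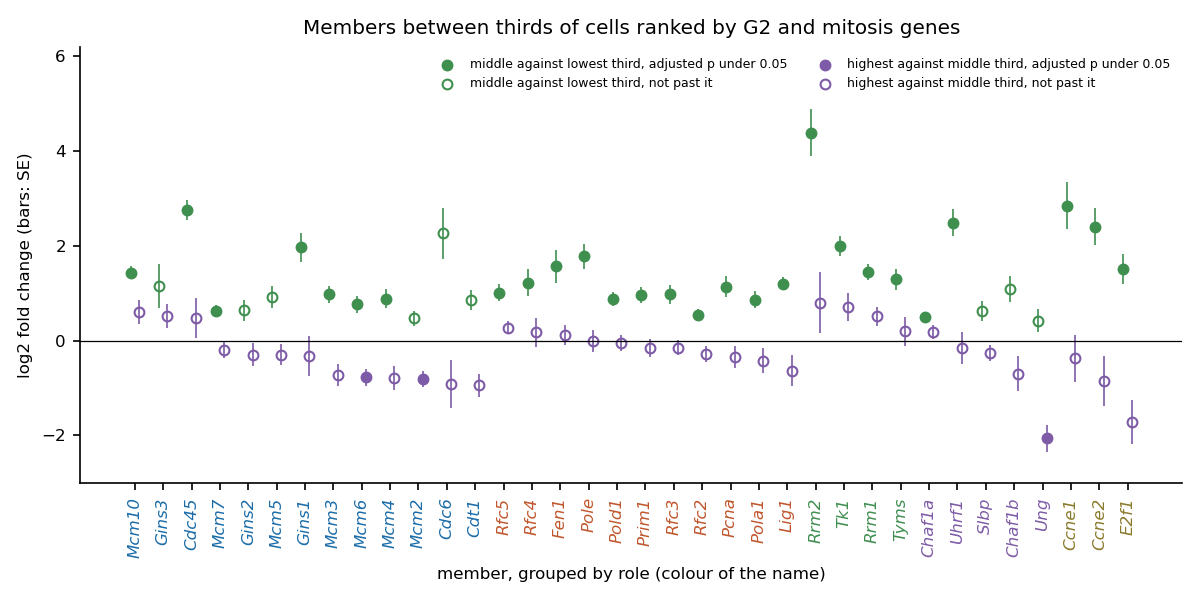
Log2 fold change (vertical axis, bars are SE, n = 7 mice) of each member, grouped by role, from the lowest to the middle tertile (green) and from the middle to the highest tertile (purple) of ISC-led cells ranked by G2 and mitosis genes. Filled points passed an adjusted p of 0.05 by edgeR. Green points lie above 0 for all 36 members, with 27 filled, and the filled purple points are Mcm6, Mcm2 and Ung.

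Over the whole rank, the highest against the lowest tertile, 18 members were called higher and 1, Ung, lower, where 8.29% and 6.86% of the 16081 genes tested were called higher and lower (edgeR). The called members were 8 of 11 synthesis genes, 4 of 4 nucleotide genes and 4 of 13 licensing and helicase genes (Cdc45, Mcm10, Gins1, Gins3), with Uhrf1 and Chaf1a. After thinning to equal reads 29 members were called in place of 19, with the share over all genes not given here. The members of the largest and smallest change by role were Cdc45 (3.25 ± 0.31) and Mcm2 (-0.34 ± 0.19) in licensing, Pole (1.73 ± 0.43) and Rfc2 (0.26 ± 0.13) in synthesis, Rrm2 (5.24 ± 0.75) and Tyms (1.51 ± 0.12) among nucleotide genes, Uhrf1 (2.34 ± 0.54) and Ung (-1.64 ± 0.30) in chromatin and repair, and Ccne1 (2.29 ± 0.75) and E2f1 (-0.30 ± 0.51) in G1/S control. Of these, Mcm2, Rfc2, Ccne1 and E2f1 did not pass the test. Mki67, the proliferation antigen and 1 of the ranking genes, had a median of 51.4 CPM in the lowest and 3138 CPM in the highest tertile. Lgr5 fell over the same tertiles by 0.78 on the log2 scale (SE 0.09, edgeR adjusted p = 0.000169), from a median of 495 CPM to 305 CPM. Of 20 ISC markers 12 were called lower.

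A finer cut into 6 bins of 22 to 57 cells gave the bin in which the mean of each member was highest. The mean level was highest in bin 3 for 3 members (Gins1, Ung and E2f1), in bin 4 for 20, in bin 5 for 12 and in bin 6 for 1, Mcm10. No member was highest in the 2 lowest bins. Mki67 and Top2a were highest in bin 6, but both are among the ranking genes, so the ranking itself favours this. Ung had its mean log2(CPM + 1) at 5.42 in bin 1 and 2.49 in bin 6, whereas Rrm2 had 1.40 and 5.96. Some peaks were near ties. E2f1 had 3.21 ± 1.11 in bin 3 and 3.20 ± 1.01 in bin 4 (SD, n = 7 mice). Mcm7 had 7.89 ± 0.296 in bin 4 and 7.84 ± 0.453 in bin 5. The bins were cut by rank within each mouse, so a bin need not be the same stretch in every mouse. These bins are a description, with no test, and the counts do not resolve an order in time.

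**Figure D4:**
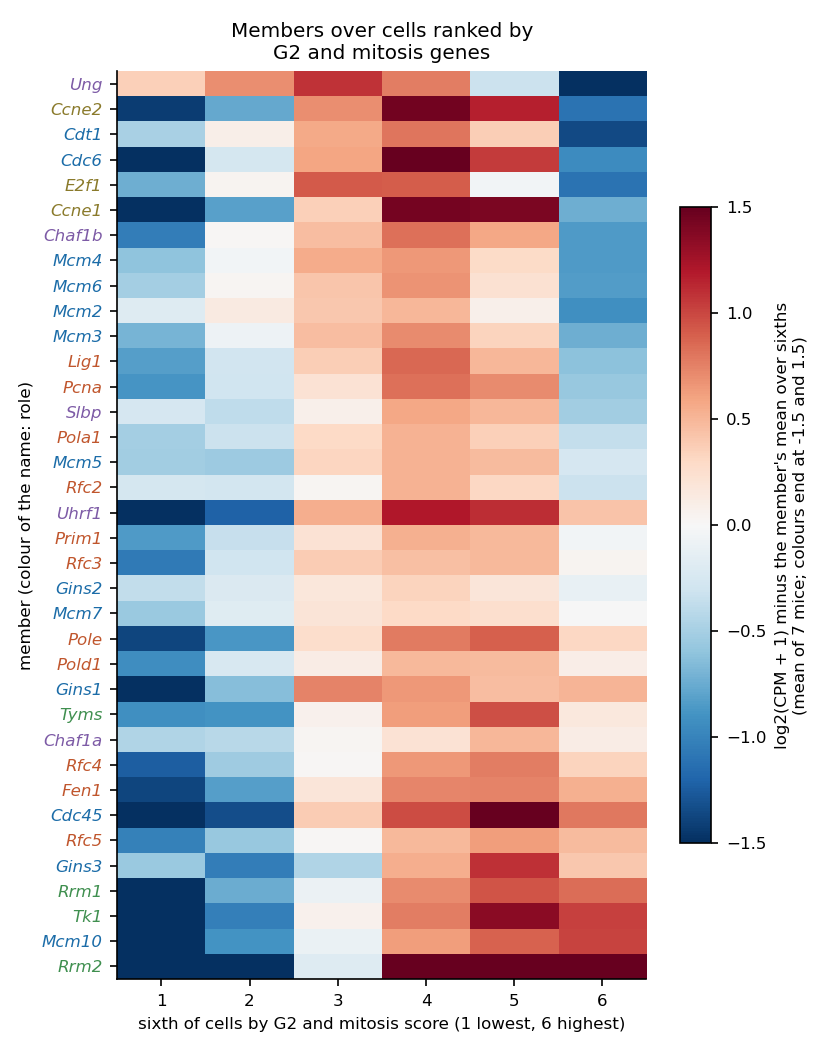
Mean log2(CPM + 1) of each member in 6 bins of ISC-led cells ranked by G2 and mitosis score within a mouse, minus the member's own mean over the bins (colour, mean of 7 mice). Members are ordered from those lowest in bin 6 relative to bins 3 and 4 (top, Ung) to those highest (bottom, Rrm2). The mean was highest in bin 4 for 20 of 36 members, for some by less than the SD over mice.

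Of 56 other replication genes, 26 were called higher by edgeR in the middle than in the lowest tertile and 33 over the whole rank. Their median change from lowest to middle was 0.85 on the log2 scale. Clspn had the largest change in both, 3.88 ± 0.50 (edgeR adjusted p = 0.00316) and 4.54 ± 0.74 (edgeR adjusted p = 0.00186). E2f7 and E2f8, repressors of the E2F family, rose from the lowest to the middle tertile by 3.47 ± 0.47 (edgeR adjusted p = 0.00396) and 3.70 ± 0.66 (edgeR adjusted p = 0.0161). From the middle to the highest tertile Dbf4, the activator of the Cdc7 kinase, was the 1 gene called, higher by 1.91 ± 0.15 (edgeR adjusted p = 0.000296).

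The members were next compared between ISC-led cells and cells led by markers of differentiated cells. The median cell had 28.4 ± 2.57 members on when led by ISC markers (SD, n = 7 mice), 25.4 ± 4.25 when led by Paneth markers (n = 7), 25.9 ± 3.97 by enterocyte markers (n = 5) and 29.5 ± 4.39 by goblet markers (n = 5). A mouse entered a class with at least 5 cells. No doublet caller was run, and a well that held an ISC with another cell would count in these classes. Markers of other cell types moved with these classes. In Paneth-led cells 5 of 7 goblet and 8 of 12 enterocyte markers were called higher by edgeR, in enterocyte-led cells 6 of 7 goblet markers, and in goblet-led cells 3 of 9 Paneth and 4 of 12 enterocyte markers. The 23 G2 and mitosis genes had a median log2 fold change of -0.64 in Paneth-led, -0.52 in enterocyte-led and -0.38 in goblet-led cells. The G2 and mitosis score of the median cell did not fall in every class. It was 3.45 ± 1.84 in ISC-led and 2.46 ± 0.952 in Paneth-led cells (SD, n = 7 mice each). In enterocyte-led cells it was 3.75 ± 2.08 and in goblet-led cells 3.98 ± 1.81 (n = 5 each), and these ranges overlapped. The part of the other markers and of the G2 and mitosis genes in the members' values was not tested. Median reads per cell were 127819 to 216906 in enterocyte-led and 211653 to 382280 in ISC-led cells.

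Enterocyte-led cells showed the most calls. All 36 members had a negative log2 fold change against ISC-led cells, with a median of -0.97 against -0.24 over all 16795 genes tested, and 14 of 36 were called lower by edgeR, where 5.54% of all genes were. They were 9 of 13 licensing and helicase genes (Cdc6, Cdt1, Mcm2, Mcm3, Mcm4, Mcm6, Mcm7, Mcm10, Gins3), Pola1, Pold1, Pole and Prim1, which all belong to polymerases, and Rrm1. Pola1 had 40.0 to 81.4 CPM in enterocyte-led and 140 to 225 CPM in ISC-led cells of the 5 mice, which did not overlap, with a log2 fold change of -1.43 ± 0.23 (edgeR adjusted p = 0.00103). The widest and narrowest changes by role were Gins3 (-2.40 ± 0.66) and Gins2 (-0.05 ± 0.31), Pole (-2.07 ± 0.57) and Rfc5 (-0.38 ± 0.31), Rrm1 (-1.02 ± 0.24) and Rrm2 (-0.48 ± 0.34), Uhrf1 (-1.74 ± 0.61) and Chaf1a (-0.29 ± 0.24), and E2f1 (-1.21 ± 0.61) and Ccne2 (-0.68 ± 0.36), where Gins3, Pole and Rrm1 passed the test and Gins2 turned to 0.027 with RLE scaling. The count was 4 without aged mouse 4, 5 without aged mouse 2, 6 without young mouse 1, 22 without aged mouse 3 and 5 when the mouse was not a block.

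In Paneth-led cells 34 of 36 members had a negative value, with a median of -0.46 against -0.09 over 16727 genes, and 4 were called lower by edgeR, where 0.652% of all genes were. These were Cdc45 (-1.51 ± 0.26, edgeR adjusted p = 0.00243), Gins3 (-1.64 ± 0.41, edgeR adjusted p = 0.0358), Uhrf1 (-0.82 ± 0.20, edgeR adjusted p = 0.0323) and Mcm6 (-0.76 ± 0.19, edgeR adjusted p = 0.0337), each lower in 7 of 7 mice. Cdc45 had 2.72 to 13.2 CPM in Paneth-led and 17.7 to 51.6 CPM in ISC-led cells, with no overlap. Plain CPM gives a wider difference than the fold change of Cdc45. The edgeR scaling removed a shift of -0.89 ± 0.18 on the log2 scale in Paneth-led cells (SD, n = 7 mice). Which scale is nearer to the RNA content of the cells was not tested. The median difference in log2 CPM over all genes was -0.79 ± 0.16, and the fold changes here are relative to the shift removed. The shift was -0.32 ± 0.15 in enterocyte-led and -0.12 ± 0.11 in goblet-led cells, and at most 0.04 between tertiles. By role the other extremes were Gins2 (0.19 ± 0.26), Rfc5 (-0.71 ± 0.19), Lig1 (-0.06 ± 0.26), Rrm2 (-0.87 ± 0.39), Tyms (-0.27 ± 0.20), Ung (0.03 ± 0.34), Ccne2 (-0.75 ± 0.40) and Ccne1 (-0.01 ± 0.47), none past the test, and with RLE scaling Ccne1 turned to 0.058 and Lig1 to 0.0073. The 4 calls became 1 without aged mouse 1, 2 or 4 or young mouse 1, 2 without young mouse 2 or 3, and 10 after thinning to equal reads.

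Goblet-led cells gave 1 call, Rfc2, a subunit of the clamp loader, at 37.2 to 73.8 CPM against 92.2 to 152 CPM in ISC-led cells of the 5 mice. The groups did not overlap, and the log2 fold change was -1.13 ± 0.16 (edgeR adjusted p = 0.0035), where 0.882% of all 16903 genes were called lower. After thinning to equal reads 3 members were called. All 36 members had a negative value, with a median of -0.56 against -0.15 over all genes. Of the 36, 7 had an unadjusted p under 0.05, as did 2775 of the 16903 genes tested, so most of these values are not told apart from 0. On plain CPM only 4 members were lower in goblet-led than in ISC-led cells of all 5 mice. By role the values ran from Mcm6 (-0.82 ± 0.27) to Gins2 (-0.18 ± 0.27), from Rfc2 to Rfc5 (-0.16 ± 0.24), from Rrm2 (-1.11 ± 0.55) to Tk1 (-0.50 ± 0.27), from Uhrf1 (-0.93 ± 0.44) to Slbp (-0.11 ± 0.27) and from Ccne1 (-0.67 ± 0.52) to Ccne2 (-0.18 ± 0.45). The list of other replication genes had 16 of 56 called lower in enterocyte-led cells. In Paneth-led cells 1 was called lower (Pole3, -0.87 ± 0.20, edgeR adjusted p = 0.0215) and 1 higher (Rfc1, 0.95 ± 0.18, edgeR adjusted p = 0.00455). In goblet-led cells 0 of the 56 were called and 5 had an unadjusted p under 0.05, as did 2775 of the 16903 genes tested. In enterocyte-led cells Dscc1 (-2.27 ± 0.66), Ticrr (-2.20 ± 0.47) and E2f7 (-1.89 ± 0.56) had the largest changes.

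Aged and young mice were compared over the summed kept cells of each mouse. No member was called by edgeR, 0 of 36 where 0% of the 20957 genes tested were, and DESeq2 and limma voom also called 0 members. Of the 36, 1 had an unadjusted p under 0.05, as did 1098 of the 20957 genes. The CPM of the 4 aged and 3 young mice overlapped for all 36 members, where 5.92% of genes did not overlap. The median log2 fold change was 0.06, with 28 of 36 positive, against 0.01 over all genes, and its sign turned with the lane as a block (-0.06), with cells weighted equally (-0.01), without young mouse 3 (-0.07) and without aged mouse 3 (-0.02). It was 0.31 without young mouse 1. In simulated counts made from these samples, the test recovered 21.3% of genes changed by 1 on the log2 scale and 67.3% of those changed by 2. Over all genes a change of 1 would thus mostly have been missed. The changed genes were drawn from all tested genes, so these are not rates for the members. The SE of the members' log2 fold changes ran from 0.15 for Mcm7 to 0.45 for Ccne2.

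Ccne1 was the member with an unadjusted p under 0.05. It had 6.94, 7.66 and 6.47 CPM in young mice 1 to 3 and 7.32, 13.8, 16.3 and 8.87 CPM in aged mice 1 to 4. Aged mouse 1 lay between the young mice and the other 3 aged mice lay above them. The log2 fold change was 0.78 ± 0.31 (SE) with p = 0.0313 and an adjusted p of 0.891 by edgeR. In the 3 lanes that held both ages it was higher in the aged mouse of 2 and lower in 1.

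The member highest per length in each role gave no difference beyond the spread of the mice. Mcm6 had 253, 235 and 166 CPM in the young and 214, 173, 184 and 197 CPM in the aged mice, a log2 fold change of -0.13 ± 0.18. Pcna had 160, 148 and 100 CPM in the young and 132, 165, 191 and 144 CPM in the aged mice, a log2 fold change of 0.27 ± 0.21. The ranges of both overlapped, with young mouse 3 lowest.

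Tk1 had 73.2, 88.9 and 64.8 CPM in the young and 62.5, 98.8, 158 and 89 CPM in the aged mice, a log2 fold change of 0.50 ± 0.29. Slbp had 195, 115 and 108 CPM in the young and 103, 128, 193 and 109 CPM in the aged mice, with -0.02 ± 0.29. Ccne2 had 32.3, 12.9 and 9.79 CPM in the young and 9.43, 21.9, 23.5 and 16 CPM in the aged mice, with -0.0037 ± 0.45, and Slbp and Ccne2 changed sign under several alternatives. Aged mouse 3 was highest or next to highest for all 3, and the groups overlapped throughout.

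**Figure D5:**
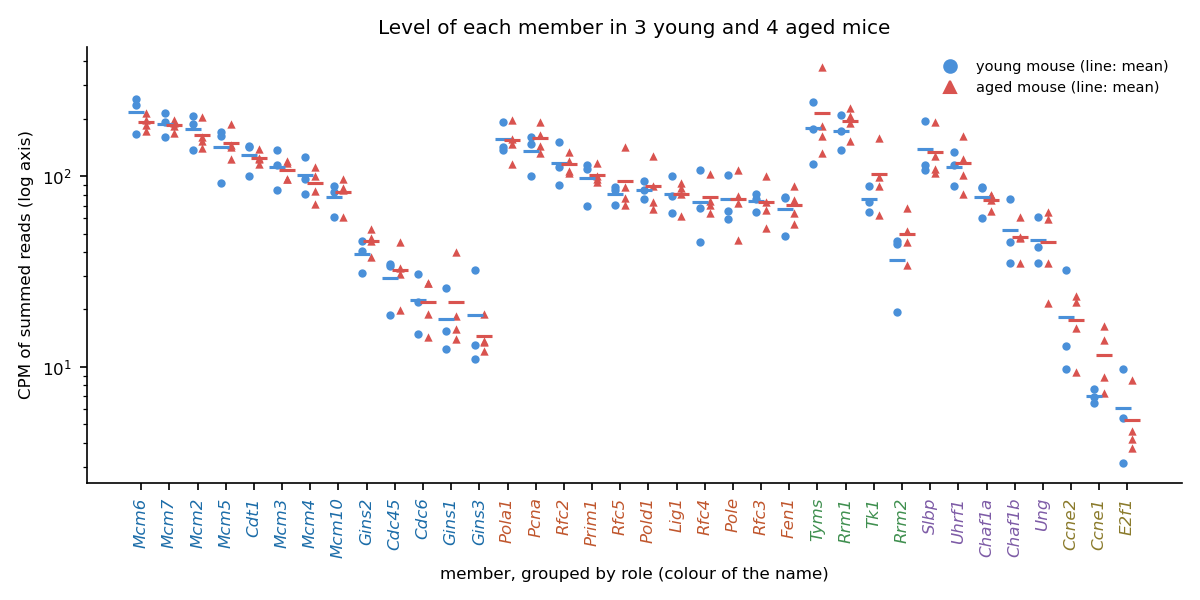
CPM of the summed reads (vertical log axis) of each member, grouped by role, in 3 young mice (circles) and 4 aged mice (triangles), with short lines at the group means. The points of the age groups overlap for all 36 members, and Tyms runs from 115 to 245 CPM in the young and from 133 to 374 CPM in the aged mice.

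Individual mice differed more than the age groups. Young mouse 3 had the lowest CPM of the 7 mice for 22 of 36 members and aged mouse 1 for 11, whereas aged mouse 3 had the highest for 15 and young mouse 1 for 12. The shares over all genes are not given here, so a shift of the members cannot be told apart from a shift over all genes. The members also vary together, so they are not 36 separate observations of a mouse. The mean member score was 4.56, 4.56 and 3.9 in the young and 3.85, 4.36, 4.87 and 4.57 in the aged mice. The aged mean less the young mean was 0.074, and it was 0.343 in ISC-led cells alone and 0.134 in thinned cells. The groups overlapped in each. The G2 and mitosis score moved alongside, at 4.03, 4.19 and 2.73 in the young and 3.13, 4.4, 4.78 and 4.14 in the aged mice. Young mouse 3 was alone in its lane, and so was aged mouse 4, so for them lane and mouse cannot be told apart. Within the lanes that held both ages the score differed by -0.762 (aged mouse 1 less young mouse 2), -0.147 (aged mouse 2 less young mouse 2) and 0.315 (aged mouse 3 less young mouse 1), with different cells of young mouse 2 in its lanes. Of the 36 members 0 were higher in the aged mouse of all 3 lanes and 7 were lower in all 3. The share of all genes with the same sign in all 3 lanes is not given here, and young mouse 2 is in more than 1 of these pairs. These counts therefore do not tell a change in the members from a change over all genes.

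The change between tertiles was also set against age. The difference between aged and young mice in the step from the lowest to the highest tertile gave 0 of 36 members by edgeR, with 0 at an unadjusted p under 0.05, where 0% of the 16081 genes tested were called and 532 had an unadjusted p under 0.05. The members' values ran from -1.40 to 1.16 on the log2 scale. The smallest adjusted p was 0.994. Of the members 29 of 36 had a negative value, with a median of -0.33 against -0.01 over all genes. Of the 56 other replication genes, 0 were called for this difference, with 7 at an unadjusted p under 0.05. In the comparison of the ages over all kept cells 0 of the 56 were called by edgeR, with 0 at an unadjusted p under 0.05. Their largest values between the ages were Recql4 (0.65 ± 0.45), E2f8 (0.55 ± 0.27) and Dut (0.40 ± 0.19).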

How the data were processed

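Smart-seq2 counts of 1920 sorted Lgr5high cells from 3 young and 4 aged mice were analysed. Per the labels, the submitters' processing notes name HISAT2, HTSeq and the build GRCm38, and the authors deposited raw counts per gene and cell, which are not normalized. Neither the annotation nor the strand setting is given in the sources used here. Of 55471 identifiers 55230 were matched to GENCODE M21, and the other 241 held 0.00278% of counts. Cells with under 1000 detected genes (84) were left out. Counts were summed per mouse, or per mouse and class or tertile with at least 5 cells, and tested with edgeR 4.0.16 (quasi-likelihood, TMM scaling, filterByExpr, Benjamini-Hochberg adjustment over all genes, threshold 0.05). The mouse was a block between classes and tertiles. DESeq2 1.42.0 and limma 3.58.1 were alternatives. Levels in the text are plain CPM of the summed counts, and scores are mean log2(CPM + 1), with a pseudocount of 1. A cell was led by the marker list with the highest mean. Figures and correlations used Python 3.11.15 with numpy 2.4.6. The edgeR step was tested on simulated data with known fold changes, where 92.6% of genes changed by 2 on the log2 scale were recovered between tertiles.

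The members and the gene lists were chosen with earlier results of these data known. Text names, for each role, the member with the highest level per length, every member with an unadjusted p under 0.05 or with mice that did not overlap in the age comparison, and the largest and smallest change by role in the other comparisons, with all calls of 5 or fewer. Further members named between tertiles, and the pairs and correlations named, were chosen after their values were seen. Other replication genes were named where called or among the 3 largest changes, and only in part where more than 5 were called, and the 10 genes most like the score were named. Promoter sequences are from RefSeq (GRCm38.p6). Depth was 49447464 to 134408884 counted reads per mouse, and p-values measure the spread between these mice. No doublet caller was run.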

Additional observations from a re-analysis of the deposited data

Results flagged for a closer look

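For each member the CPM of the 4 aged mice and the log2 ratios between tertiles of the 7 mice (3 contrasts) were searched for a mouse far from the rest by Dixon's ratio. Of 144 such groups 3 held one, or 2.08%, and chance gives about 1 in 20. The log2 ratio of Gins1 between the middle and the lowest tertile was 3.59 in young mouse 1 and 1.02 to 2.04 in the other 6 mice. The log2 ratio of Rfc4 in the same contrast was -0.65 in aged mouse 1, where Rfc4 was lower in the middle tertile, and 0.85 to 1.87 in the other mice. The log2 ratio of Chaf1a between the highest and the lowest tertile was 1.89 in aged mouse 1 and 0.20 to 0.68 in the other mice. The middle tertile of aged mouse 1 had a median G2 and mitosis score of 1.24, the second lowest of the 7 mice, and its part in these values was not tested.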

How the results depend on the processing

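The number of members called between age groups was 0 under every alternative run, the replicate block included. Mice with the same number do not deviate together (correlations of -0.0159, 0.107 and -0.11), so the numbers do not pair them, and the replicate block gave 0 calls. The score difference between ages was 0.0740 and ran from -0.146 to 0.263 as each mouse was left out, with 0.343 in ISC-led and 0.134 in thinned cells. Thinned to 100000 reads, 29 members were called between the highest and lowest tertile in place of 19, 5 between the highest and middle in place of 3, 10 in Paneth-led cells in place of 4 and 3 in goblet-led cells in place of 1. DESeq2 called 7 and the fit with no replicate block 5 between the highest and middle tertile. With no replicate block 6 were called between the middle and lowest tertile in place of 27, and 5 in enterocyte-led cells in place of 14. Leaving out a mouse moved the counts from 9 to 27 (middle against lowest), from 1 to 5 (highest against middle), from 1 to 3 (Paneth) and from 4 to 22 (enterocyte). The median share of cells on fell to 72.5% when at least 10 CPM was asked of a cell. The share of all genes called under these alternatives is not given here, so a change over all genes cannot be told apart. The cause of these changes was not tested. A class minimum of 10 cells was not run for enterocyte-led and goblet-led cells, which left too few mice. Single members near 0 changed sign. Between ages Ccne2 was 0.0129 with RLE scaling, 0.0109 with DESeq2, 0.0142 with no filter, 0.0130 with the lane as a block, 0.29 with limma voom, 0.19 with the replicate block, 0.24 thinned, 0.075 in ISC-led cells, 0.12 with cells weighted equally and -0.31 to 0.72 leaving out a mouse. Slbp was 0.0198 with limma voom, 0.071 with the replicate block, 0.027 in ISC-led cells, 0.0501 with the lane as a block and -0.24 to 0.34 leaving out a mouse, and Mcm6 -0.28 to 0.0157. With cells cut at the median in place of tertiles E2f1 was 0.039. In Paneth-led cells Ccne1 was 0.058 (RLE), 0.039 (DESeq2), 0.42 (no replicate block), 0.0899 (thinned) and -0.31 to 0.36 leaving out a mouse, Lig1 0.0073 (RLE), 0.0040 (DESeq2), 0.20 (no replicate block) and -0.30 to 0.10, Ung -0.093 (no filter) and -0.27 to 0.26, and Gins2 -0.043 to 0.33. In enterocyte-led cells Gins2 was 0.027 (RLE), 0.023 (DESeq2), 0.0705 (no replicate block) and -0.38 to 0.15. In goblet-led cells Gins2 was 0.0121 (thinned) and -0.41 to 0.045, Slbp 0.025 (no replicate block) and -0.33 to 0.19, and Ccne2 -0.51 to 0.25.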
